A study of Mus musculus with 32 samples.

Results

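The genes described are the non-collagen part of the extracellular matrix and the enzymes that remodel it, read in atria of transgenic mice. A list of 44 genes was taken by name, covering glycoproteins, elastic fibre proteins, latent TGF-beta binding proteins, proteoglycans, lysyl oxidases, nidogens, matrix metalloproteases and their inhibitors. Of these, 40 had a probe set of their own on the array, all with 1 probe set each, and all 40 passed the filter on dim genes, among 15219 tested genes of 19938 named ones. Spp1, Fbn1, Efemp2 and Loxl2 had no probe set assigned to that gene alone and were not analysed here.

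Left and right atria of 16 mice were hybridised to Affymetrix Mouse Gene 1.0 ST arrays, 1 array an atrium, 32 arrays in all. The 4 genotypes, with 4 animals each, were dnPI3K-Mst1 (carrying both transgenes), Mst1 (a transgene for mammalian sterile 20-like kinase 1, the product of Stk4), dnPI3K (a dominant negative phosphoinositide 3-kinase) and non-transgenic Ntg. All animals shared a mixed C57BL/6 and FVB/N background and a standard chow diet. The promoter that drives each transgene, the founder lines and the age of the animals are not given in the sources used here. Signals are log2 values, so that a difference of 1 is a 2-fold change, and the value of an animal is the mean of its 2 arrays. A gene is called higher or lower where limma gave an adjusted p under 0.05 over all 15219 genes.

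Cardiac fibroblasts make most of the interstitial matrix of the heart. Fibronectin and the matricellular proteins bind cells and growth factors, elastin is laid on microfibrils with the help of fibulins and Emilin1, and small leucine-rich proteoglycans bind collagen fibrils and set their spacing. Lysyl oxidases crosslink collagen and elastin, metalloproteases cut matrix proteins, and the TIMP proteins block them. In atria an excess of interstitial matrix is known as atrial fibrosis and is associated with slowed conduction.

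Stk4 was at 8.16 to 8.39 in the 8 animals with the Mst1 transgene, against 7.41 to 7.79 in the 8 without it, and the 2 sets of animals did not overlap. The atrial myosin light chain Myl7 was at 11.93 to 12.70 and sarcolipin, Sln, at 7.66 to 8.85 over the 32 arrays, so markers of atrial myocytes were present on every array. Array medians lay between 5.51 and 5.68, and 4 arrays had a mean correlation with the others under 0.97 (Mst1 1466, dnPI3K 3241 and dnPI3K 1507, all labelled left, and Ntg 1662, labelled right). The labels of the 2 sides need care. Bmp10, a gene of the right atrium in adult mice, was at 11.42 to 12.77 on one array of every animal and at 3.77 to 6.64 on the other. The brighter array was labelled left in 13 animals and right in 3 (Ntg 1301, Ntg 1662 and Mst1 1839). Sides are therefore given as labelled, and comparisons of genotypes rest on the mean of both atria, which the side labels do not touch.

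The windows around the transcription starts of 7 members are shown because these are the members with the largest differences that had an entry (Ltbp2, Cilp, Aspn, Svep1, Mmp3), the inhibitor that rose with them (Timp1) and the member that fell (Timp4). Each runs from 250 bases before to 50 after the start, 5′ to 3′ on the gene's strand, from RefSeq on GRCm38.p6, and capitals mark matches, on either strand, to an AP-1 motif (TGANTCA), a TEAD motif (GGAATG) or a TATA box (TATAAA).
Ltbp2, chr12:84876442-84876741, minus strand: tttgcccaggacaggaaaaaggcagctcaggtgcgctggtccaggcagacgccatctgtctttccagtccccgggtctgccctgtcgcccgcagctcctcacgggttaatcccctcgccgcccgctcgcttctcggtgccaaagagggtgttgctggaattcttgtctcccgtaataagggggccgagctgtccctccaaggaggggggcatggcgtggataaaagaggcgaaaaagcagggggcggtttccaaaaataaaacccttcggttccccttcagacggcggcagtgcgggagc
Cilp, chr9:65264930-65265229, plus strand: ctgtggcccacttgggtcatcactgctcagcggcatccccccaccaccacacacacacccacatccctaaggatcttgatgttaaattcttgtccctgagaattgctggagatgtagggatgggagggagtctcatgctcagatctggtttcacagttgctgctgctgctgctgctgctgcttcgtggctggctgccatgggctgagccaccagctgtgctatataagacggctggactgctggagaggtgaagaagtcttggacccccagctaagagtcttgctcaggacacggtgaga
Aspn, chr13:49544193-49544492, plus strand: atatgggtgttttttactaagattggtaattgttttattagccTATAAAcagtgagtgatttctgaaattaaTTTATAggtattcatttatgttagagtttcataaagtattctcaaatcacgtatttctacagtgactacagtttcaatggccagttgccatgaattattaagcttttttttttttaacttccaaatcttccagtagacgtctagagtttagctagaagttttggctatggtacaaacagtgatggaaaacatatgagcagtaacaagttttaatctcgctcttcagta
Svep1, chr4:58206547-58206846, minus strand: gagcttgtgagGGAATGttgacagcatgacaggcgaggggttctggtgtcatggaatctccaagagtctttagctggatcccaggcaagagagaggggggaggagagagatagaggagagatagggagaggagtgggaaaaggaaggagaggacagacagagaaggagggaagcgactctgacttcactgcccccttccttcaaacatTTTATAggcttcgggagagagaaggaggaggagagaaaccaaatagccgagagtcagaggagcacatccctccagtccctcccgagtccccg
Mmp3, chr9:7445572-7445871, plus strand: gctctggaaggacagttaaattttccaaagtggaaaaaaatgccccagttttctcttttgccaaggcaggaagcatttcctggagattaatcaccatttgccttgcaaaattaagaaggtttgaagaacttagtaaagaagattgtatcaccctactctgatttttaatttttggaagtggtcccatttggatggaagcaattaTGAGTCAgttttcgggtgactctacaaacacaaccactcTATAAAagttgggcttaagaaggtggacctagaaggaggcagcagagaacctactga
Timp1, chrX:20869916-20870215, plus strand: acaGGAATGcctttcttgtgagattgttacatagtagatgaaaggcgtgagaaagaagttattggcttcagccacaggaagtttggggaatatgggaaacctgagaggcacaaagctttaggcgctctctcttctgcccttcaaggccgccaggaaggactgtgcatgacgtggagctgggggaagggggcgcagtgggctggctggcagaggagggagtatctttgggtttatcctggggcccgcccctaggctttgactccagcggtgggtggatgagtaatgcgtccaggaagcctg
Timp4, chr6:115252156-115252455, minus strand: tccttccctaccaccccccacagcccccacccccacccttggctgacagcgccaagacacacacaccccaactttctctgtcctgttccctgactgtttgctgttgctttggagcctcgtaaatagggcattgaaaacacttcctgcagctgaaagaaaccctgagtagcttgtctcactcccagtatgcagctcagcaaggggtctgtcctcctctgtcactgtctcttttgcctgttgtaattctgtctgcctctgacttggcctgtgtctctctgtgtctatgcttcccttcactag
Entries were found for 27 of the 40 members, and the first listed window of a gene was used. The AP-1 letters were in 3 of the 27 windows (Efemp1, Ltbp3 and Mmp3), against 7.94% of the 27018 windows of all genes. The TEAD letters were in 4 of 27 (Nid1, Ogn, Svep1 and Timp1), against 14.6% of all windows, and TATAAA was in 5 of 27 (Aspn, Mmp3, Ogn, Svep1 and Tnc), against 14.2%. The GC box GGGCGG was in 13 of 27, against 35.9%, and the SMAD motif CAGAC in 14 of 27, against 49.7%. The Mmp3 window has the AP-1 and the TATA letters close to its start, and the Cilp, Ltbp2 and Timp4 windows hold none of the 3 capitalised motifs. Such matches describe the letters of these windows and show no binding.

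Most of these matrix genes were higher in atria with both transgenes. In dnPI3K-Mst1 against Ntg, 32 of the 40 members were called higher and 1, Timp4, lower, where 16.4% of all tested genes were called higher and 14.2% lower. Every dnPI3K-Mst1 animal lay above every Ntg animal for 31 members and below for 1, as was so for 18.4% and 15.1% of all tested genes. The members' median difference was 0.93, against 0.02 over all genes, and the range ran from -1.31 for Timp4 to 2.20 for Ltbp2. In Mst1 against Ntg, 20 members were higher and 1 was lower, at a median of 0.39, where 12.6% of all genes were called higher and 14.2% lower. In dnPI3K against Ntg limma called none of the 40, where 1.29% of all genes were called higher and 2.75% lower. The median was 0.05, and 9 members had an unadjusted p under 0.05, a count not set against all genes. In bulk tissue a larger share of matrix-making cells and more RNA per cell cannot be told apart.

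**Figure D1:**
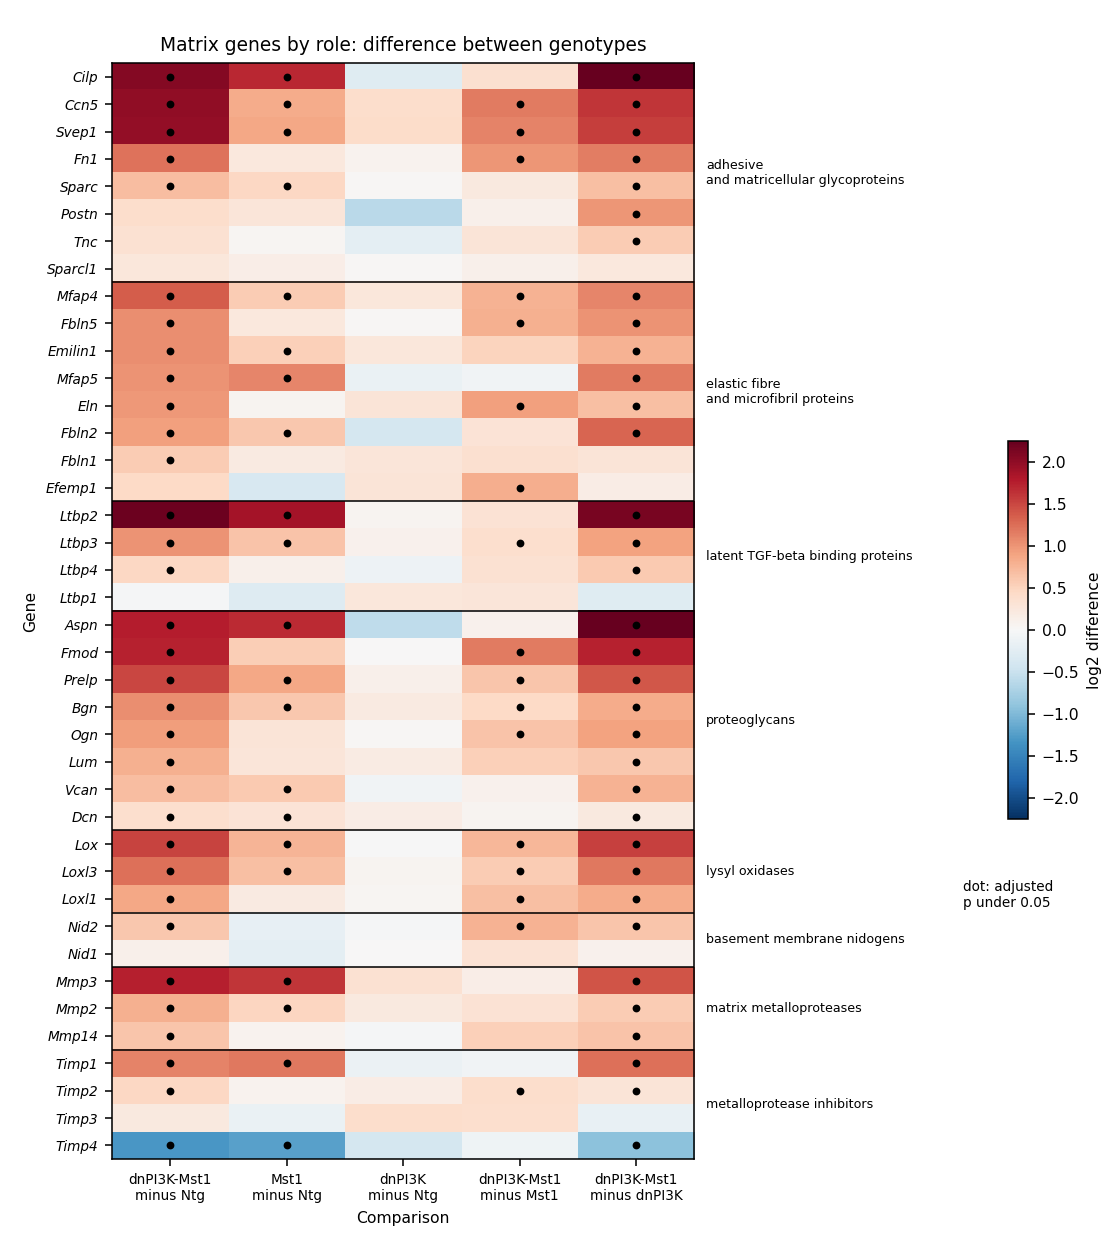
Difference in log2 signal for each of the 40 matrix genes (rows, by role) in 5 comparisons between genotypes (columns, n = 4 animals a genotype); red is higher and blue lower in the genotype named first, and a dot marks an adjusted p under 0.05. Dots fill most of the dnPI3K-Mst1 columns against Ntg (33 of 40) and dnPI3K (34 of 40), and the dnPI3K column against Ntg has no dot.

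Among the 8 adhesive and matricellular glycoproteins, 5 were called above Ntg in dnPI3K-Mst1 and 4 in Mst1. Cilp, cartilage intermediate layer protein, is secreted by cardiac fibroblasts and dampens TGF-beta signalling. It was at 7.36, 7.41, 7.81 and 7.90 in dnPI3K-Mst1 and at 7.09, 7.27, 7.29 and 7.40 in Mst1 animals, against 5.18, 5.18, 5.32 and 5.47 in dnPI3K and 5.05, 5.45, 5.54 and 6.19 in Ntg animals. All 8 animals with the Mst1 transgene lay above all 8 without it, and the difference from Ntg was 2.06 ± 0.17 in dnPI3K-Mst1 (SE, 4.17-fold, adjusted p = 2.28e-08) and 1.70 ± 0.17 in Mst1 (adjusted p = 3.26e-07). Svep1, a large multidomain protein that binds integrins, was at 9.26, 9.34, 9.37 and 9.56 in dnPI3K-Mst1, at 7.95, 8.26, 8.35 and 8.53 in Mst1 and at 7.66, 7.75, 7.84 and 8.03 in dnPI3K, against 7.05, 7.23, 7.54 and 7.79 in Ntg animals. The dnPI3K-Mst1 animals formed a group apart, 1.98 ± 0.14 above Ntg (3.95-fold, adjusted p = 3.34e-09) and 1.11 ± 0.14 above Mst1 (adjusted p = 0.000197). Ccn5, a CCN family member that lacks the C-terminal domain of its relatives, had the same order. Its values were 8.86, 9.19, 9.44 and 9.78 in dnPI3K-Mst1, 7.93, 8.13, 8.18 and 8.39 in Mst1 and 7.37, 7.50, 7.94 and 8.05 in dnPI3K, against 6.95, 7.26, 7.33 and 7.76 in Ntg animals. The difference of dnPI3K-Mst1 from Ntg was 1.99 ± 0.19 (adjusted p = 1.21e-07) and that from Mst1 1.16 ± 0.19 (adjusted p = 0.00175).

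Fn1, fibronectin, the scaffold on which other matrix proteins assemble, behaved otherwise in Mst1 alone. It was at 10.48, 10.49, 10.53 and 11.24 in dnPI3K-Mst1, at 9.24, 9.57, 9.91 and 10.03 in Mst1 and at 9.07, 9.37, 9.65 and 10.01 in dnPI3K, against 9.14, 9.20, 9.71 and 9.77 in Ntg animals. Only the dnPI3K-Mst1 animals lay outside the range of the others, 1.00 ± 0.21 above Mst1 (adjusted p = 0.0117, and 0.0511 without dnPI3K-Mst1 1647, at 0.81), while Mst1 differed from Ntg by 0.23 ± 0.21 (adjusted p = 0.486). Sparc, which binds collagen and helps its deposition, was 0.69 ± 0.14 above Ntg in dnPI3K-Mst1 (adjusted p = 0.00074) and 0.46 ± 0.14 in Mst1 (adjusted p = 0.0172). Periostin, Postn, a marker of activated fibroblasts, was not called against Ntg. Its values were 9.14, 9.56, 9.80 and 10.16 in dnPI3K-Mst1, 9.18, 9.42, 9.54 and 10.04 in Mst1 and 8.36, 8.60, 8.69 and 9.06 in dnPI3K, against 8.82, 9.27, 9.42 and 9.59 in Ntg animals. Every animal with the Mst1 transgene lay above every dnPI3K animal, by 0.99 ± 0.21 in dnPI3K-Mst1 (adjusted p = 0.00166) and 0.87 ± 0.21 in Mst1 (adjusted p = 0.00458, and 0.807 on arrays labelled left, at 0.13), while the Ntg animals overlapped with all 3 other genotypes. Sparcl1, a relative of Sparc, differed from Ntg by 0.26 in dnPI3K-Mst1 and was not called. Tnc, tenascin-C, differed by 0.35 and was not called either. Its means of 4.56 in Ntg and 4.91 in dnPI3K-Mst1 lay near the filter of 4.48, so a difference could be missed.

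**Figure D2:**
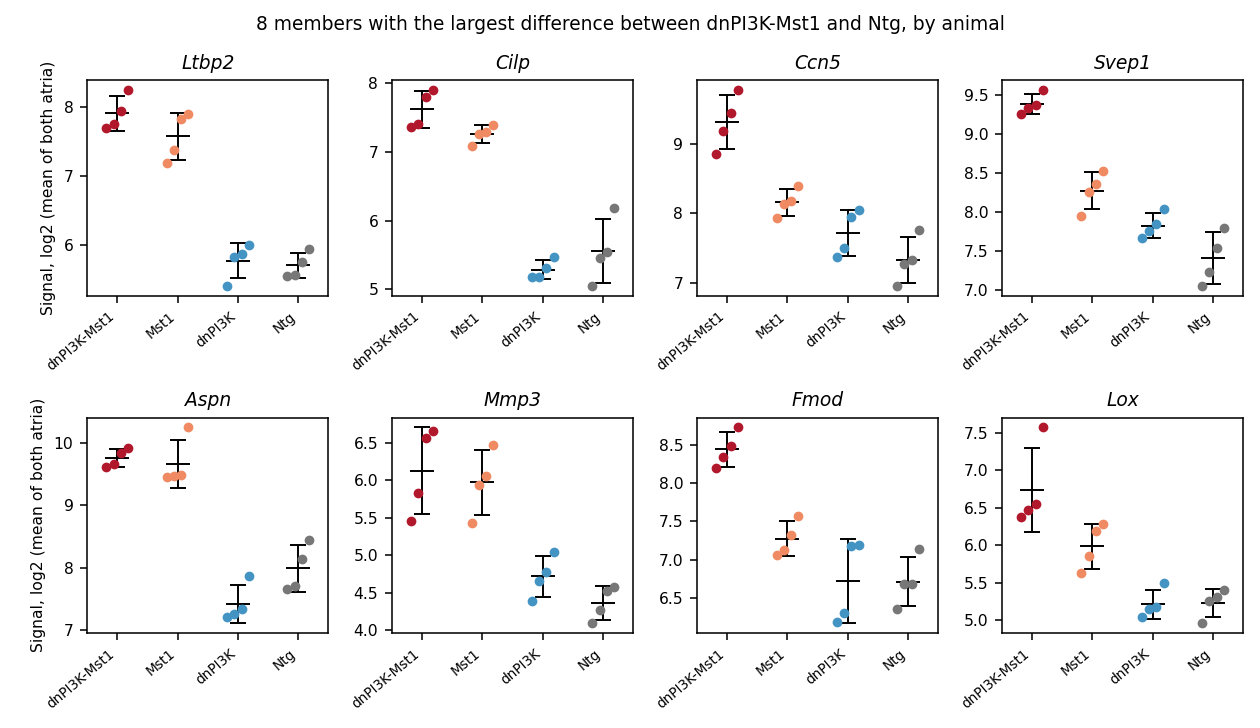
Signal (log2, mean of both atria) of the 8 matrix genes with the largest difference between dnPI3K-Mst1 and Ntg; points are the 4 animals of a genotype, and bars are the mean and SD. Ltbp2, Cilp, Aspn and Mmp3 sit high in dnPI3K-Mst1 and Mst1 animals alike, and Ccn5, Svep1 and Fmod are highest in the dnPI3K-Mst1 animals.

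Of the 8 elastic fibre and microfibril genes, 7 were called above Ntg in dnPI3K-Mst1 and 4 in Mst1. Mfap4, a microfibril-associated glycoprotein, was at 8.33, 8.51, 8.65 and 8.99 in dnPI3K-Mst1, at 7.67, 7.76, 7.81 and 8.10 in Mst1 and at 7.34, 7.38, 7.50 and 7.83 in dnPI3K, against 6.71, 7.38, 7.41 and 7.55 in Ntg animals. Groups with the Mst1 transgene did not overlap with Ntg, and the difference was 1.36 ± 0.16 in dnPI3K-Mst1 (2.56-fold, adjusted p = 2.64e-06) and 0.57 ± 0.16 in Mst1 (adjusted p = 0.0129). Mfap5, another microfibril protein, which binds fibrillin, rose as far in Mst1 as with both transgenes. It was at 9.81, 9.91, 9.93 and 10.27 in dnPI3K-Mst1 and at 9.94, 10.05, 10.09 and 10.17 in Mst1, against 8.48, 8.74, 8.89 and 9.12 in dnPI3K and 8.53, 9.01, 9.06 and 9.25 in Ntg animals. The difference from Ntg was 1.02 ± 0.14 in dnPI3K-Mst1 (adjusted p = 1.44e-05) and 1.10 ± 0.14 in Mst1 (adjusted p = 7.32e-06), and the 2 genotypes with the Mst1 transgene overlapped. Elastin itself, Eln, had 8.34, 8.49, 8.66 and 9.64 in dnPI3K-Mst1, 7.58, 7.86, 7.91 and 8.13 in Mst1 and 7.70, 8.03, 8.08 and 8.60 in dnPI3K, against 7.29, 7.86, 7.98 and 8.10 in Ntg animals. In dnPI3K-Mst1 it was 0.98 ± 0.23 above Ntg (adjusted p = 0.00314), whereas Mst1 differed from Ntg by 0.06 ± 0.23 (adjusted p = 0.894). The dnPI3K-Mst1 animals lay above all Mst1 animals and overlapped with dnPI3K. Their difference from Mst1 was 0.92 ± 0.23 (adjusted p = 0.0345), and 0.63 without dnPI3K-Mst1 1647, where it was no longer called (adjusted p = 0.114), as it was not without Mst1 1466, 1839 or 1840 (adjusted p up to 0.0879).

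Fbln5, the fibulin needed for elastic fibre assembly, had values of 8.70, 8.79, 9.22 and 9.50 in dnPI3K-Mst1, 8.01, 8.19, 8.33 and 8.45 in Mst1 and 7.85, 7.88, 8.04 and 8.37 in dnPI3K, against 7.76, 7.92, 7.92 and 8.44 in Ntg animals. The dnPI3K-Mst1 animals did not overlap with any other genotype and were 1.04 ± 0.17 above Ntg (adjusted p = 7.7e-05). Fbln2, a fibulin of basement membranes and elastic fibres, was at 9.45, 9.47, 9.57 and 9.67 in dnPI3K-Mst1, at 8.87, 9.26, 9.39 and 9.43 in Mst1 and at 8.09, 8.09, 8.14 and 8.59 in dnPI3K, against 8.14, 8.58, 8.86 and 8.90 in Ntg animals. It was higher than in Ntg by 0.92 ± 0.15 in dnPI3K-Mst1 (adjusted p = 0.000113) and by 0.62 ± 0.15 in Mst1 (adjusted p = 0.00505). Emilin1, which links elastin to microfibrils, was 1.04 above Ntg in dnPI3K-Mst1 and 0.54 in Mst1, and Fbln1 0.56 and 0.20, of which the last was not called. Efemp1, fibulin-3, was not called against Ntg in either genotype. Its values were 8.40, 8.65, 8.79 and 9.25 in dnPI3K-Mst1, between 7.80 and 8.19 in Mst1 and 8.23, 8.52, 8.80 and 8.87 in dnPI3K, against 7.67, 8.28, 8.39 and 8.94 in Ntg animals. The Mst1 animals lay below those of both other transgenic genotypes, with a difference of -0.64 ± 0.21 from dnPI3K (adjusted p = 0.0322), and the Ntg animals overlapped with all 3. dnPI3K-Mst1 was 0.81 ± 0.21 above Mst1 (adjusted p = 0.0353), a call lost with arrays centred on their median (adjusted p = 0.0665) and without any 1 of Mst1 1466, 1839 and 1840 and dnPI3K-Mst1 1509 and 1650 (adjusted p up to 0.116).

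Among the 4 latent TGF-beta binding proteins, which tether the latent growth factor to the matrix, 3 were called above Ntg in dnPI3K-Mst1 and 2 in Mst1. Ltbp2, which binds fibrillin rather than latent TGF-beta, had the largest difference from Ntg of all members in both genotypes with the Mst1 transgene. Its values were 7.69, 7.75, 7.94 and 8.24 in dnPI3K-Mst1 and 7.19, 7.38, 7.82 and 7.89 in Mst1, against 5.41, 5.82, 5.86 and 5.99 in dnPI3K and 5.55, 5.56, 5.75 and 5.94 in Ntg animals. A gap of more than 1 log2 unit separated the animals with the Mst1 transgene from those without it, and the difference from Ntg was 2.20 ± 0.16 in dnPI3K-Mst1 (4.6-fold, adjusted p = 3.72e-09) and 1.87 ± 0.16 in Mst1 (3.66-fold, adjusted p = 3.98e-08). Ltbp3 was 1.01 ± 0.10 above Ntg in dnPI3K-Mst1 and 0.64 ± 0.10 in Mst1 (adjusted p = 3.22e-07 and 9.73e-05). Ltbp4 was 0.47 ± 0.16 above Ntg in dnPI3K-Mst1 (adjusted p = 0.0281), and Ltbp1 differed by -0.02 in dnPI3K-Mst1 and by -0.30 in Mst1 and was not called.

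All 8 proteoglycans were called above Ntg in dnPI3K-Mst1, and 5 in Mst1. Aspn, asporin, a small leucine-rich protein of valves and fibrous tissue that binds TGF-beta, was at 9.62, 9.66, 9.83 and 9.92 in dnPI3K-Mst1 and at 9.46, 9.47, 9.48 and 10.25 in Mst1, against 7.21, 7.26, 7.33 and 7.87 in dnPI3K and 7.66, 7.71, 8.14 and 8.44 in Ntg animals. The 2 pairs of genotypes were 1 log2 unit apart at their nearest animals, and dnPI3K-Mst1 was 1.77 ± 0.19 above Ntg (adjusted p = 5.05e-07) and 2.34 ± 0.19 above dnPI3K (5.07-fold, adjusted p = 3.41e-08). Fmod, fibromodulin, which regulates collagen fibril growth, was at 8.20, 8.34, 8.49 and 8.73 in dnPI3K-Mst1, at 7.06, 7.12, 7.32 and 7.57 in Mst1 and at 6.18, 6.30, 7.18 and 7.19 in dnPI3K, against 6.35, 6.68, 6.69 and 7.13 in Ntg animals. Here the dnPI3K-Mst1 animals lay above those of every other genotype, at 1.73 ± 0.21 over Ntg (3.32-fold, adjusted p = 2.29e-06) and 1.17 ± 0.21 over Mst1 (adjusted p = 0.00344), while Mst1 against Ntg missed the threshold (0.56 ± 0.21, adjusted p = 0.0525). Prelp, which anchors basement membranes to connective tissue, was at 10.42, 10.47, 10.61 and 10.83 in dnPI3K-Mst1 and at 9.72, 9.86, 10.11 and 10.15 in Mst1, against 9.08, 9.17, 9.18 and 9.35 in dnPI3K and 8.84, 8.96, 9.13 and 9.40 in Ntg animals. It rose by 1.50 ± 0.12 in dnPI3K-Mst1 (adjusted p = 1.76e-08) and by 0.88 ± 0.12 in Mst1 (adjusted p = 1.62e-05).

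Ogn, osteoglycin, a small leucine-rich proteoglycan linked to left ventricular mass, was at 9.98, 10.16, 10.16 and 10.18 in dnPI3K-Mst1, at 9.22, 9.33, 9.35 and 9.98 in Mst1 and at 9.13, 9.24, 9.24 and 9.26 in dnPI3K, against 8.95, 9.05, 9.30 and 9.43 in Ntg animals. It was 0.93 ± 0.13 above Ntg in dnPI3K-Mst1 (adjusted p = 1.58e-05) and was not called in Mst1 (0.29 ± 0.13, adjusted p = 0.121). Biglycan, Bgn, rose by 1.05 in dnPI3K-Mst1 and 0.60 in Mst1. Decorin, Dcn, which binds collagen and TGF-beta, had the smallest difference of the proteoglycans in dnPI3K-Mst1, at 0.37 ± 0.07 in dnPI3K-Mst1 against 0.31 ± 0.07 in Mst1, and both were called (adjusted p = 0.000489 and 0.0025). Versican, Vcan, which binds hyaluronan, was 0.69 and 0.59 above Ntg in these genotypes, and lumican, Lum, was called in dnPI3K-Mst1 (0.80) and not in Mst1 (0.27).

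All 3 lysyl oxidases were called higher in dnPI3K-Mst1 against Ntg and against Mst1, and 2 of them in Mst1 against Ntg. Lox, the main collagen-crosslinking enzyme, was at 6.38, 6.47, 6.55 and 7.57 in dnPI3K-Mst1 and at 5.63, 5.85, 6.18 and 6.28 in Mst1, against 5.04, 5.14, 5.17 and 5.49 in dnPI3K and 4.96, 5.25, 5.30 and 5.39 in Ntg animals. Neither group with the Mst1 transgene overlapped with the others, and the difference from Ntg was 1.51 ± 0.20 in dnPI3K-Mst1 (2.86-fold, adjusted p = 7.77e-06) and 0.76 ± 0.20 in Mst1 (adjusted p = 0.00747). Loxl3 was at 7.62, 7.75, 7.79 and 7.97 in dnPI3K-Mst1 and at 7.04, 7.20, 7.27 and 7.31 in Mst1, against 6.54, 6.61, 6.62 and 6.64 in dnPI3K and 6.27, 6.55, 6.62 and 6.71 in Ntg animals. It rose by 1.25 ± 0.09 in dnPI3K-Mst1 (adjusted p = 8.42e-09) and by 0.67 ± 0.09 in Mst1 (adjusted p = 2.08e-05), in 3 levels that did not overlap. Loxl1, which acts on elastin, was 0.88 ± 0.16 above Ntg in dnPI3K-Mst1 (adjusted p = 0.000312) and 0.20 in Mst1, which was not called.

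The 2 nidogens bridge laminin and collagen IV in basement membranes. Nid2 was at 7.92, 8.05, 8.11 and 8.22 in dnPI3K-Mst1, at 6.89, 7.32, 7.43 and 7.52 in Mst1 and at 7.14, 7.45, 7.51 and 7.67 in dnPI3K, against 7.25, 7.44, 7.47 and 7.70 in Ntg animals. It was not called in either single transgenic genotype, and with both transgenes it lay 0.61 ± 0.13 above Ntg (adjusted p = 0.00141) and 0.78 ± 0.13 above Mst1 (adjusted p = 0.00238). Nid1 differed from Ntg by 0.11 in dnPI3K-Mst1 and by -0.22 in Mst1, neither of them called.

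All 3 metalloproteases were called above Ntg in dnPI3K-Mst1, and 2 in Mst1. Mmp3, stromelysin-1, was at 5.46, 5.83, 6.57 and 6.65 in dnPI3K-Mst1 and at 5.43, 5.94, 6.06 and 6.47 in Mst1, against 4.39, 4.66, 4.78 and 5.05 in dnPI3K and 4.10, 4.27, 4.53 and 4.58 in Ntg animals. The animals without the Mst1 transgene lay near the filter of 4.48 and the Ntg mean of 4.37 under it, so no fold is given, and the difference from Ntg was 1.76 ± 0.23 in dnPI3K-Mst1 (adjusted p = 7.1e-06) and 1.61 ± 0.23 in Mst1 (adjusted p = 2.56e-05). Mmp2, gelatinase A, was 0.80 ± 0.14 above Ntg in dnPI3K-Mst1 and 0.48 ± 0.14 in Mst1 (adjusted p = 0.000259 and 0.0181). Mmp14, the membrane-bound protease that activates the Mmp2 precursor, was 0.62 ± 0.18 above Ntg in dnPI3K-Mst1 (adjusted p = 0.0114) and 0.08 in Mst1, which was not called.

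The 4 inhibitors went different ways. Timp1, the inducible inhibitor, was at 7.11, 7.56, 7.58 and 7.92 in dnPI3K-Mst1 and at 7.44, 7.52, 7.68 and 7.82 in Mst1, against 6.03, 6.28, 6.37 and 6.53 in dnPI3K and 5.96, 6.52, 6.56 and 6.70 in Ntg animals. It was higher in every animal with the Mst1 transgene than in any without, by 1.11 ± 0.16 in dnPI3K-Mst1 (adjusted p = 2.31e-05) and 1.18 ± 0.16 in Mst1 (2.27-fold, adjusted p = 1.4e-05). Timp4, an inhibitor abundant in heart muscle, went down. It was at 4.64, 5.07, 5.37 and 5.42 in dnPI3K-Mst1 and at 5.12, 5.12, 5.22 and 5.39 in Mst1, against 5.84, 5.86, 6.07 and 6.40 in dnPI3K and 6.19, 6.19, 6.52 and 6.82 in Ntg animals. The groups with and without the Mst1 transgene did not overlap, and the differences were -1.31 ± 0.16 in dnPI3K-Mst1 (adjusted p = 3.81e-06) and -1.22 ± 0.16 in Mst1 (adjusted p = 1.12e-05). On arrays of 1 side the spread was wider: the Mst1 difference was not called on arrays labelled left (-1.42, adjusted p = 0.0836) or right (-1.02, adjusted p = 0.124), and the dnPI3K-Mst1 difference was called on the left (-1.65, adjusted p = 0.0366) and not on the right (-0.97, adjusted p = 0.133). In Ntg each labelled side holds arrays with more and arrays with less Bmp10, and Timp4 is given by Bmp10 further on. Timp2 was 0.46 ± 0.09 above Ntg in dnPI3K-Mst1 (adjusted p = 0.000637) and 0.07 in Mst1. Timp3, which stays bound to the matrix, was at 10.55, 10.66, 10.70 and 10.92 in dnPI3K-Mst1, at 9.84, 10.45, 10.51 and 10.53 in Mst1 and at 10.76, 10.85, 10.90 and 11.01 in dnPI3K, against 10.23, 10.42, 10.65 and 10.66 in Ntg animals. It was not called against Ntg in any genotype, though in dnPI3K it passed the threshold under 5 other settings given further on, and was lower in Mst1 than in dnPI3K by a difference of -0.54 ± 0.13 (adjusted p = 0.00524).

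Members were also called between the 2 genotypes with the Mst1 transgene. In dnPI3K-Mst1 against Mst1, 17 of 40 were called higher and none lower, at a median difference of 0.38 against 0.01 over all genes, where 2.65% of all genes were called higher and 0.848% lower. The count was 11 without dnPI3K-Mst1 1647, where 1.58% of all genes were higher, and 10 without Mst1 1839, where 1.33% were. On arrays of 1 side it was 3 on the left (Svep1, Ccn5 and Loxl3), where 0.467% of all genes were higher, and 6 on the right (Fn1, Svep1, Ccn5, Fmod, Nid2 and Timp2), where 0.486% were. Through Mst1 1839 each labelled side mixes arrays with more and with less Bmp10. Set beside the calls in Mst1 against Ntg, 8 members were higher in both comparisons (Svep1, Ccn5, Mfap4, Ltbp3, Bgn, Prelp, Lox and Loxl3). Another 12 were higher in Mst1 against Ntg and not called in dnPI3K-Mst1 against Mst1 (Sparc, Cilp, Fbln2, Emilin1, Mfap5, Ltbp2, Aspn, Dcn, Vcan, Mmp2, Mmp3 and Timp1). A further 9 were not called in Mst1 against Ntg and higher in dnPI3K-Mst1 against Mst1 (Fn1, Eln, Fbln5, Efemp1, Fmod, Ogn, Loxl1, Nid2 and Timp2). Timp4 was lower in Mst1 against Ntg and not called in the other comparison, and 10 members were called in neither. The Mst1 animals stand in both comparisons, so the 2 sets of calls are not independent.

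**Figure D3:**
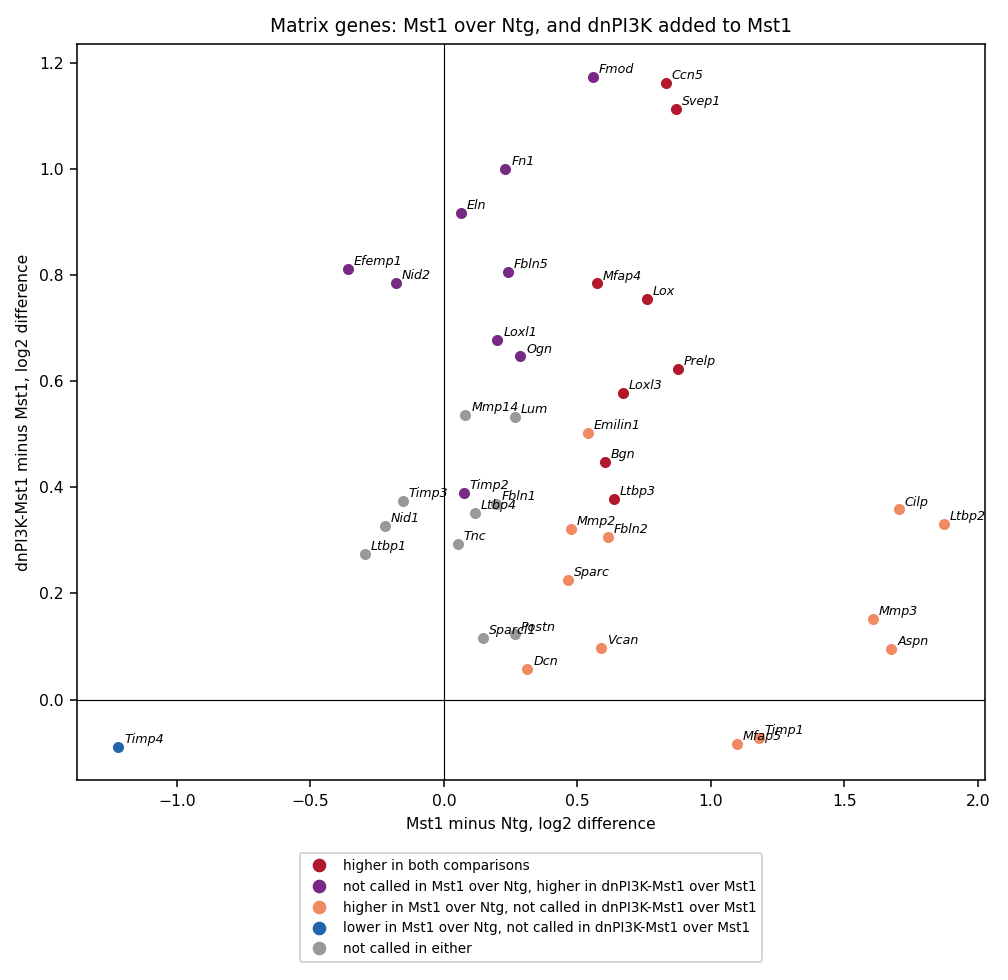
Each point is 1 of the 40 matrix genes, at its log2 difference in Mst1 against Ntg (x axis) and in dnPI3K-Mst1 against Mst1 (y axis), with colours for the calls (adjusted p under 0.05); the Mst1 animals are shared by both axes. Ltbp2, Cilp, Aspn and Mmp3 lie far right and low on the y axis, and Fn1, Eln and Nid2 lie between -0.18 and 0.23 on the x axis and between 0.78 and 1.00 on the y axis.

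The Mst1 transgene on top of dnPI3K moved most members. In dnPI3K-Mst1 against dnPI3K, 33 members were higher and Timp4 lower, at a median of 0.84 against 0.02 over all genes, where 12.8% of all genes were called higher and 8.8% lower. In Mst1 against dnPI3K, 16 members were higher and 4 lower (Efemp1, Ltbp1, Timp3 and Timp4), where 11.8% of all genes were called higher and 10% lower. A departure from the sum of the 2 single effects was called by limma for none of the 40 members, where 0.368% of all genes were called above the sum and 0.145% below it. Of the 40 estimates 37 lay above 0, at a median of 0.49, and 18 had an unadjusted p under 0.05, where 56.5% of all genes lay above 0, their median was 0.03 and 10.9% had such a p. The smallest adjusted p values were those of Nid2 (0.81 ± 0.19, adjusted p = 0.0539), Fmod (1.17 ± 0.29, adjusted p = 0.0778) and Loxl3 (0.51 ± 0.13, adjusted p = 0.0954). Nid2 passed the threshold with array weights (adjusted p = 0.023), with the animal as a random replicate block (adjusted p = 0.0333) and without any of 4 animals (Mst1 1466, Mst1 1838, Ntg 1834 or dnPI3K 1507), and reached an adjusted p of 0.315 on arrays labelled left. Fmod passed without dnPI3K 1507 (adjusted p = 0.0468) or dnPI3K 1660 (adjusted p = 0.0346), and Loxl3 with array weights (adjusted p = 0.0255) or without Ntg 1834 (adjusted p = 0.0271).

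In dnPI3K against Ntg the 3 members with the smallest p were Aspn, Svep1 and Timp3. Aspn differed from Ntg by -0.57 ± 0.19 (adjusted p = 0.0978), Svep1 by 0.42 ± 0.14 (adjusted p = 0.108) and Timp3 by 0.39 ± 0.13 (adjusted p = 0.113). The 4 dnPI3K animals all lay above the Ntg animals for Timp3 and overlapped with them for Aspn and Svep1. On the arrays labelled right, which include those of the 2 Ntg animals whose Bmp10 goes against the label, 4 members were called higher (Svep1 at 0.62, Mmp2 at 0.66, Timp2 at 0.39 and Timp3 at 0.57), where 1.18% of all genes were. Timp3 also passed the threshold in limma fits with the animal as a random replicate block (adjusted p = 0.0445), with array weights (adjusted p = 0.0277), with the 2 genotypes by themselves (adjusted p = 0.0322) and without Mst1 1466 (adjusted p = 0.0163). Svep1 passed with array weights (adjusted p = 0.0401) and without Ntg 1662 (adjusted p = 0.0321), and Aspn without Mst1 1466 (adjusted p = 0.0301) or dnPI3K 1507 (adjusted p = 0.0451).

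Other genes of the matrix were counted too. Of all tested genes, 16.4% were called higher and 14.2% lower in dnPI3K-Mst1 against Ntg. In Mst1 against Ntg these shares were 12.6% and 14.2%. In dnPI3K-Mst1 against Ntg, 23 of 44 further glycoproteins were higher and 4 lower, 20 of 43 further proteases, inhibitors and crosslinkers were higher and none lower, and 9 of 27 further proteoglycans were higher and 3 lower. In Mst1 against Ntg the counts were 13 and 7, 10 and 5, and 7 and 4. The matricellular growth factor genes Ccn1 and Ccn2 were 2.17 ± 0.30 and 1.67 ± 0.20 above Ntg in dnPI3K-Mst1, and 1.56 ± 0.30 and 1.63 ± 0.20 above Ntg in Mst1. Among laminins and other basement membrane genes 7 of 18 were higher and none lower in dnPI3K-Mst1, and 1 was higher and 4 lower in Mst1, among them Lamb1 at -0.65 ± 0.13. Of 27 matrix receptors 17 were higher and 2 lower in dnPI3K-Mst1, and 11 and 2 in Mst1. Cd44, the hyaluronan receptor, was 1.82 ± 0.16 above Ntg in dnPI3K-Mst1 and 2.04 ± 0.16 in Mst1, and Itgb6, a subunit of an integrin that activates TGF-beta, fell by 2.54 ± 0.16 in dnPI3K-Mst1 and by 2.39 ± 0.16 in Mst1. Of 22 genes of the TGF-beta pathway, 17 were higher and none lower in dnPI3K-Mst1, and 13 were higher and 1 lower in Mst1. The list holds inhibitors of the pathway, such as Skil, Smad6 and Fstl3, beside ligands, receptors and Smads. Skil and Smad6 were among its called genes with the largest change in dnPI3K-Mst1, and Fstl3 in Mst1. Tgfb2 was 0.98 ± 0.20 and 1.11 ± 0.20 above Ntg in these genotypes, and the receptor Tgfbr1 1.13 ± 0.10 and 0.95 ± 0.10.

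Markers of cell types were read beside the members. Of all tested genes, 16.4% were called higher and 14.2% lower in dnPI3K-Mst1 against Ntg. The shares in Mst1 against Ntg were 12.6% and 14.2%, and several marker counts below are near these shares. Of 18 fibroblast markers past the filter, 10 were higher and 2 lower in dnPI3K-Mst1 than in Ntg, and 4 were higher and 3 lower in Mst1. None of them is a member, but the collagen genes Col1a1 and Col1a2, themselves matrix genes, are on the list. Both were among its called genes with the largest change in dnPI3K-Mst1. The summed signal of these markers weighs the brightest genes most. On the log2 scale it was 13.94 to 14.23 in dnPI3K-Mst1, 13.60 to 13.83 in Mst1 and 13.47 to 13.78 in dnPI3K, against 13.35 to 13.76 in Ntg animals. Of 11 markers of activated fibroblasts past the filter, of which 4 of the 12 listed are members, 8 were higher in dnPI3K-Mst1 and 7 in Mst1, with sums of 11.91 to 12.33 in dnPI3K-Mst1, 11.87 to 12.12 in Mst1 and 10.94 to 11.33 in dnPI3K, against 10.70 to 11.25 in Ntg animals. The activated fibroblast counts and sums partly repeat the members' own differences, since Ltbp2 and Cilp are among the called genes of that list with the largest change. They were not computed without the members. Some genes, such as Meox1, are on both fibroblast lists. Fap, a surface protease of activated fibroblasts, was below the filter on dim genes. Smooth muscle and pericyte sums were 12.87 to 13.10 in dnPI3K-Mst1, 12.53 to 13.02 in Mst1 and 12.26 to 12.57 in dnPI3K, against 12.31 to 12.52 in Ntg animals, with 7 of 14 markers higher and 1 lower in dnPI3K-Mst1 and 5 higher and 5 lower in Mst1. Macrophage and monocyte sums were 12.30 to 12.93 in dnPI3K-Mst1, 12.08 to 12.32 in Mst1 and 12.03 to 12.37 in dnPI3K, against 12.03 to 12.41 in Ntg animals, with 8 of 20 markers higher in dnPI3K-Mst1 and 2 higher and 1 lower in Mst1. The endothelial and endocardial sums did not overlap between the 2 genotypes with the Mst1 transgene, at 13.60 to 13.80 in dnPI3K-Mst1, 13.02 to 13.43 in Mst1 and 13.44 to 13.74 in dnPI3K, against 13.30 to 13.61 in Ntg animals. Of 15 markers of these cells 4 were called above Ntg and 2 below in dnPI3K-Mst1, and 1 above and 6 below in Mst1. Mesothelial sums were 10.63 to 10.94 in dnPI3K-Mst1, 9.71 to 10.34 in Mst1 and 10.40 to 11.20 in dnPI3K, against 10.19 to 10.93 in Ntg animals, with 5 of 11 markers lower in Mst1. Myocyte sums were 15.53 to 15.74 in dnPI3K-Mst1, 15.45 to 15.78 in Mst1 and 15.76 to 15.81 in dnPI3K, against 15.76 to 15.89 in Ntg animals, with 6 of 12 markers lower in dnPI3K-Mst1 and 4 in Mst1. Lymphocyte and mast cell sums were 8.31 to 8.49 in dnPI3K-Mst1, 8.25 to 8.33 in Mst1 and 7.90 to 8.17 in dnPI3K, against 7.91 to 8.04 in Ntg animals, with 2 of 6 markers higher in dnPI3K-Mst1 and 1 higher and 1 lower in Mst1. Schwann cell sums were 8.21 to 8.42 in dnPI3K-Mst1, 8.24 to 8.36 in Mst1 and 8.08 to 8.17 in dnPI3K, against 7.83 to 8.21 in Ntg animals, with 1 of 5 markers higher in each genotype with the Mst1 transgene. Adipocyte sums were 9.50 to 10.58 in dnPI3K-Mst1, 9.65 to 9.96 in Mst1 and 9.85 to 10.09 in dnPI3K, against 9.81 to 10.83 in Ntg animals, with 1 of 8 markers lower in dnPI3K-Mst1 and 3 in Mst1. The part of these cell types in the members' differences was not tested.

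Between the sides as labelled, limma called none of the 40 members and 0% of all genes in either direction over the 16 animals. An unadjusted p under 0.05 was found for 16 members, a count not set against all genes. The members with the smallest p were Fmod (0.55 ± 0.15, higher on the right in 15 of 16 animals, adjusted p = 0.202), Mmp2 (0.37 ± 0.11, in 13 of 16, adjusted p = 0.23) and Ogn (-0.33 ± 0.10, in 4 of 16, adjusted p = 0.26). In the 13 animals whose array labelled right had less Bmp10, 13 members were higher and 1 lower on the right, where 3.35% of all genes were called higher and 1.89% lower. Timp4 led with 1.29 ± 0.15 (adjusted p = 1.76e-05), followed by Mfap4 at 0.75 ± 0.07 (adjusted p = 3.42e-06), Lox at 0.74, Mfap5 at 0.65, Fmod at 0.65, Cilp at 0.58, Mmp2 at 0.58, Vcan at 0.54, Fn1 at 0.50, Eln at 0.50, Ltbp2 at 0.48, Nid1 at 0.37 and Timp2 at 0.22. Ogn was lower on the right, at -0.51 ± 0.07 (adjusted p = 0.000182). In the 3 other animals the plain mean difference had the opposite sign for 13 of these 14 members, Fmod being the exception at 0.02. Over all 40 members the 2 sets of animals had opposite mean signs for 27. Neither of these counts of opposite signs was made over all genes, so neither is shown to be particular to the members.

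**Figure D4:**
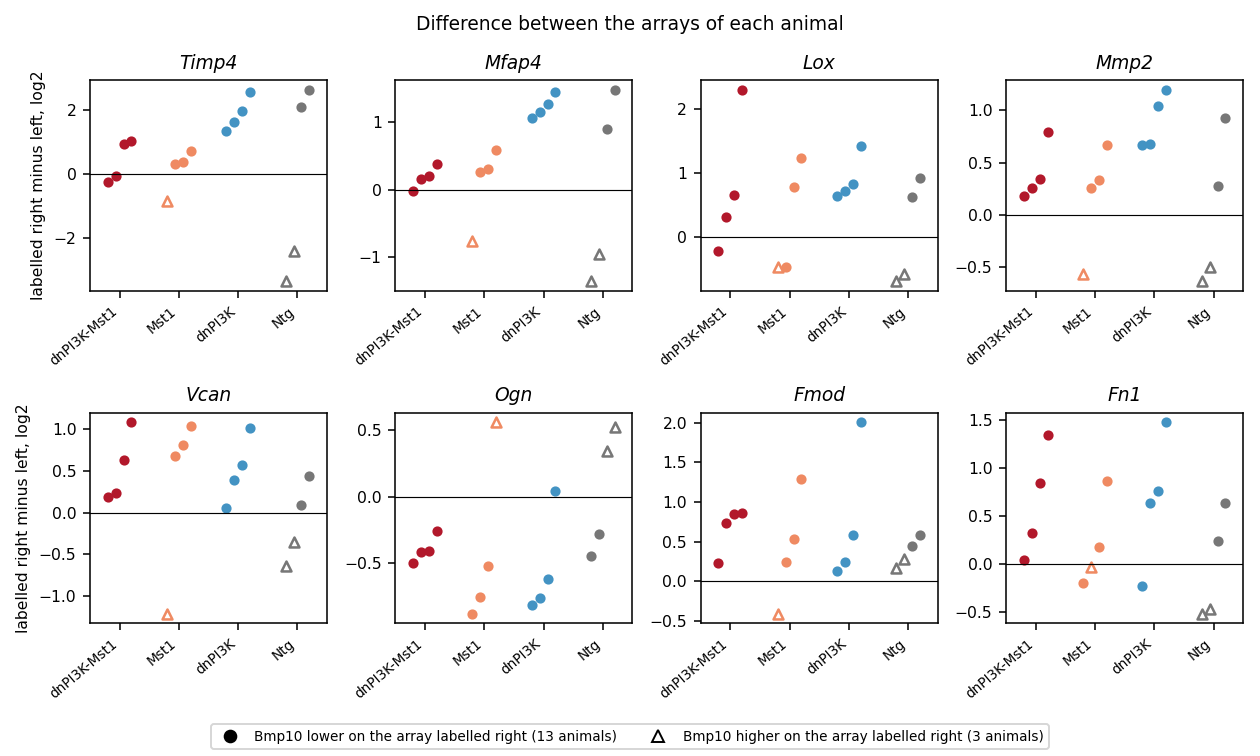
Array labelled right minus array labelled left of the same animal (log2) for 8 matrix genes, by genotype; filled circles are the 13 animals with less Bmp10 on the array labelled right, and open triangles the 3 animals with more. The triangles lie on the other side of 0 from most circles for Timp4, Mfap4, Mmp2, Vcan and Ogn, and 2 of 3 lie with the circles for Fmod.

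Timp4 is given array by array. In the dnPI3K-Mst1 animals it was at 5.90, 4.52, 5.04 and 5.89 on the arrays with less Bmp10 and at 4.94, 4.76, 5.09 and 4.85 on those with more. In the Mst1 animals it was at 5.39, 5.48, 5.54 and 5.57 on the arrays with less Bmp10 and at 5.06, 4.76, 4.70 and 5.20 on those with more. In the dnPI3K animals it was at 7.68, 6.74, 6.83 and 6.68 on the arrays with less Bmp10 and at 5.12, 5.39, 4.85 and 5.03 on those with more. In the Ntg animals it was at 8.49, 7.73, 7.24 and 7.51 on the arrays with less Bmp10 and at 5.15, 5.32, 5.14 and 4.87 on those with more. On the arrays with less Bmp10 the genotypes with and without the Mst1 transgene did not overlap, and on the arrays with more Bmp10 all 16 animals lay between 4.70 and 5.39. The latter values are close to the filter of 4.48, so a lowering on these arrays could be missed.

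Genotype differences were also fitted on the arrays of 1 labelled side. In dnPI3K-Mst1 against Ntg, 25 members were higher on arrays labelled left, where 7.5% of all genes were, and 32 on arrays labelled right, where 13.4% were. In Mst1 against Ntg the counts were 13 on the left, where 4.9% of all genes were higher, and 18 on the right, where 11.8% were. In both comparisons a labelled side mixes arrays with more and with less Bmp10, through Ntg 1301, Ntg 1662 and, in the second, Mst1 1839. These left and right counts therefore do not set 1 atrium against the other. In dnPI3K-Mst1 against dnPI3K, 27 were higher on the left, where 7.1% of all genes were, and 26 on the right, where 7.59% were, with Ltbp1 and Timp4 lower on the right, where 6.78% of all genes were. In these 2 genotypes Bmp10 had the same order in all 8 animals. The log2 differences of this comparison therefore do not involve the 3 animals whose Bmp10 goes against the label. Its SE, p values and calls do involve them, since the spread was taken from the arrays of all genotypes on that side.

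In the dnPI3K animals, with the spread taken from all 16 animals, Fbln2 was higher on the right (0.68 ± 0.15, in 4 of 4 animals, adjusted p = 0.038) and Postn lower (-1.06 ± 0.22, in 4 of 4 animals, adjusted p = 0.0285), where 0.499% of all genes were called higher and 0.145% lower. A fit of these 4 animals by themselves called 9 members higher and 2 lower, where 1.57% of all genes were higher and 1.03% lower. Set against these animals, the dnPI3K-Mst1 animals had another side difference for 3 members, in a test chosen after the data were seen. Of all genes, 0.164% were called higher and 0.375% lower. An unadjusted p under 0.05 was found for 13 members, a count not set against all genes. Postn was at 9.53, 10.37, 9.91 and 9.70 on the right and 8.75, 9.95, 9.70 and 9.43 on the left in dnPI3K-Mst1, against 8.61, 7.89, 8.24 and 7.86 on the right and 9.51, 9.50, 8.96 and 8.86 on the left in dnPI3K. It was higher on the right in all 4 dnPI3K-Mst1 animals and lower in all 4 dnPI3K animals, with mean side differences of 0.42 ± 0.25 and -1.06 ± 0.39 (SD), which differ by 1.48 ± 0.19 (SE, adjusted p = 0.00276). Svep1 ran the other way, at 9.09, 9.37, 9.05 and 8.83 on the right and 9.59, 9.76, 9.70 and 9.70 on the left in dnPI3K-Mst1, against 8.45, 8.11, 7.73 and 8.23 on the right and 7.61, 7.39, 7.60 and 7.45 on the left in dnPI3K. Its side difference was negative in all 4 dnPI3K-Mst1 animals and positive in all 4 dnPI3K animals, and differed by -1.22 ± 0.17 (adjusted p = 0.00477). Mfap4 had side differences of 0.18 ± 0.16 in dnPI3K-Mst1 and 1.24 ± 0.16 in dnPI3K (SD), which differ by -1.05 ± 0.18 (adjusted p = 0.0124). In the fit over all 4 genotypes, whose spread holds the 3 animals with the other Bmp10 order, the adjusted p values were 0.0862 for Postn, 0.141 for Svep1 and 0.697 for Mfap4. The F test of side differences over the 4 genotypes called none of the genes, and Postn had the smallest p among members (0.000265, adjusted p = 0.235). In this test 10 members had an unadjusted p under 0.05, a count not set against all genes.

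**Figure D5:**
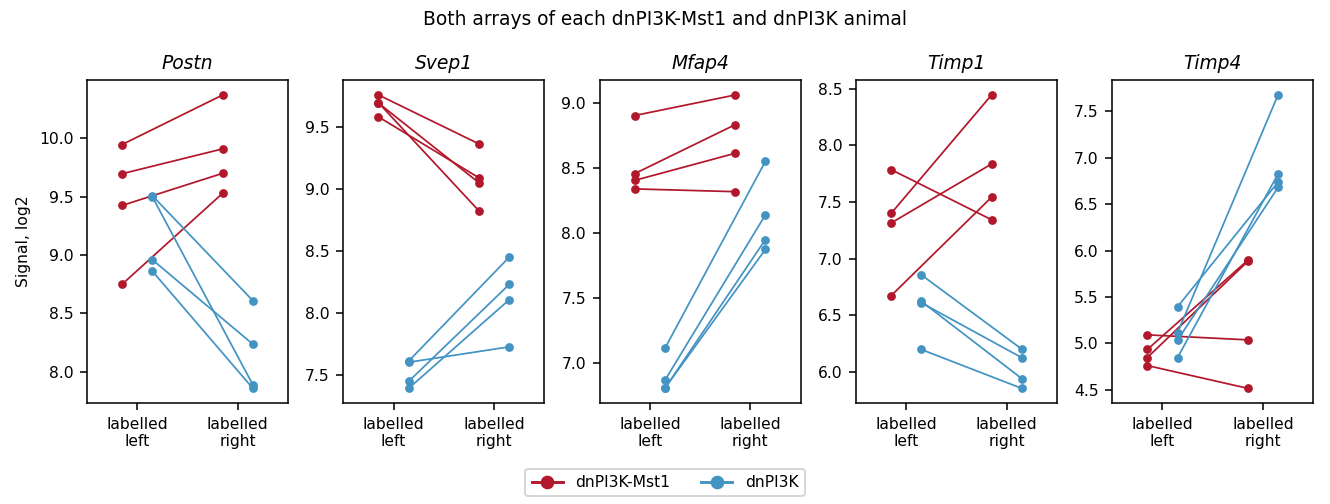
Signal (log2) on the array labelled left and the array labelled right of each dnPI3K-Mst1 and dnPI3K animal, for 5 matrix genes; each line joins the arrays of 1 animal. Postn goes up to the right in dnPI3K-Mst1 and down in dnPI3K, Svep1 does the reverse, Mfap4 is nearly level in dnPI3K-Mst1 and rises in dnPI3K, and Timp4 is far higher on the right in dnPI3K.

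Read as genotype differences on each side, Postn was 0.25 ± 0.23 above dnPI3K in dnPI3K-Mst1 on the left (adjusted p = 0.566) and 1.73 ± 0.29 on the right (adjusted p = 0.00048). Svep1 was 2.17 ± 0.23 above on the left and 0.96 ± 0.16 on the right, and Mfap4 1.63 ± 0.31 and 0.58 ± 0.24, of which the last was not called (adjusted p = 0.124). Timp1 was 0.72 ± 0.20 and 1.76 ± 0.27 above, and Timp4 differed by -0.19 ± 0.53 on the left and -1.65 ± 0.45 on the right. On the left Timp4 was close to the filter of 4.48 in both genotypes. The SE and adjusted p values on each side rest on the spread over all genotypes. That spread includes the animals whose Bmp10 goes against the label. For Timp1 and Timp4 the difference between sides was not called in the 8 animals (adjusted p = 0.104 and 0.167).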

How the data were processed

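Both atria of 16 mice were profiled on Mouse Gene 1.0 ST arrays from 100 ng of total RNA, per the labels' protocols. The deposited values are log2 signals of 35512 probe sets on 32 arrays, and per the submitters' processing notes, Affymetrix Expression Console and PLIER were used, with versions and genome build not given in the sources used here. In the platform annotation 21789 probe sets had 1 gene symbol, 1621 several and 12102 none, and the brightest of a gene's probe sets over all arrays stood for the gene. Genes with a mean under 4.48 (the 30th percentile of probe sets) were left out. The 2 arrays of an animal were averaged, and genotypes were compared with limma 3.58.1 in R 4.3.3 (lmFit, eBayes with a trend) over all 16 animals, two-sided, with Benjamini-Hochberg adjustment over 15219 genes. Sides were compared on within-animal differences, since same-numbered arrays come from 1 animal; the correlation of an animal's 2 arrays about their group means had a median of 0.05 (-0.42 to 0.44), above 0.1 in 7 of 16. The number of arrays limits the precision. On simulated data for Mst1 against Ntg over 15219 genes, with 200 changed at a time, 72% of changes of 0.5, 98.5% of 1 and 99.5% of 2 log2 units were called, with 10, 11 and 8 false calls. The members, the lists and the rule for genes given by animal (the called members with the largest change of a comparison, at most 8, the leader of each role group, and the 3 smallest p where fewer than 3 were called) were chosen with earlier results of these data known. The test of side differences between dnPI3K-Mst1 and dnPI3K, and the windows and motifs shown, were chosen after the data were seen. Alternatives covered the filter, the scaling between arrays, the probe set rule, 1 side only, the spread estimate, array weights, the animal as a replicate block, the groups in the fit and left-out animals. Promoter windows came from RefSeq on GRCm38.p6.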

Additional observations from a re-analysis of the deposited data

Results flagged for a closer look

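Within a genotype, the animal means of 15 of the 160 sets of 4 values held 1 animal far from the other 3 by Dixon's test; chance flags about 1 in 20 sets. Of these, 7 were dnPI3K-Mst1 1647, always the highest: Fn1 at 11.24 (others 10.48 to 10.53), Tnc at 5.66 (4.61 to 4.74), Emilin1 at 8.41 (7.74 to 7.85), Ltbp3 at 9.25 (9.04 to 9.05), Lox at 7.57 (6.38 to 6.55), Loxl1 at 9.37 (8.97 to 8.99) and Nid1 at 9.56 (9.07 to 9.13). The animal dnPI3K 1507 was the highest of its genotype for Fbln2 at 8.59, Bgn at 11.2 and Mmp2 at 9.38. Mst1 1466 was the lowest for Ltbp1 at 7.76 and Timp3 at 9.84 and the highest for Aspn at 10.25. For Ogn, dnPI3K 1648 at 9.13 and dnPI3K-Mst1 1650 at 9.98 were the lowest, though their distance from the others was small (9.24 to 9.26 and 10.16 to 10.18). Mst1 1466 and dnPI3K 1507 each had an array with a mean correlation under 0.97.

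For 3 members the difference of dnPI3K-Mst1 from dnPI3K was not the same on the 2 labelled sides, by the test of side differences in the 8 animals. The right-side difference less the left-side one was 1.48 for Postn, -1.22 for Svep1 and -1.05 for Mfap4, and the test was chosen after the data were seen.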

How the results depend on the processing

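The settings compared were the filter, 2 rescalings, the mean of a gene's probe sets, 1 side only, 2 spread estimates, array weights, the replicate block, fits on fewer groups and left-out animals. Of the values of named members under these settings, 1349 kept their direction and call, 27 gained a call, 30 lost it and 4 reversed. All 4 reversals were in the difference between sides: in the 3 animals with more Bmp10 on the right, Fmod was at -0.0896, Mmp2 at -0.568 and Ogn at 0.498 in the fit, and in Ntg alone Ogn was at 0.0334. Rescaling moved the median of all genes by less than 0.1. On the left only, 13 members were higher and 0 lower in Mst1 against Ntg, 3 higher in dnPI3K-Mst1 against Mst1, 0 lower in dnPI3K-Mst1 against dnPI3K and 0 lower in Mst1 against dnPI3K. On the right only, 0 were lower in Mst1 and 0 in dnPI3K-Mst1 against Ntg, 4 higher in dnPI3K against Ntg, 6 higher in dnPI3K-Mst1 against Mst1 and 2 lower in dnPI3K-Mst1 against dnPI3K. Array weights gave 2 higher in dnPI3K against Ntg, 2 lower in dnPI3K-Mst1 against dnPI3K and 3 above the sum of single effects. With the animal as a random replicate block (consensus correlation 0.12) 1 was higher in dnPI3K against Ntg, 0 lower in dnPI3K-Mst1 against dnPI3K and 1 above the sum, and no other count of members moved by over 1.5 times; without the block the sides again gave 0 calls. With only its own groups in the fit dnPI3K against Ntg had 1 higher, and with the 4 animals of low array correlation left out 2 were lower in Mst1 against Ntg and 1 above the sum. Leaving out 1 animal gave 1 to 3 lower in Mst1 against Ntg, 0 to 1 higher and 0 to 1 lower in dnPI3K against Ntg, 10 to 18 higher in dnPI3K-Mst1 against Mst1, 0 to 3 above the sum, and 0 to 6 higher and 0 to 1 lower on the right side, the 6 without Mst1 1839. Between sides, separate fits gave: dnPI3K 9 higher and 2 lower, dnPI3K-Mst1 1 lower, the 13 animals 13 and 1, and the 3 animals 1 and 2. For the side difference of dnPI3K-Mst1 less that of dnPI3K, the fit of all 4 genotypes gave 0 higher and 0 lower, a trend over the mean level 4 lower, no trend 4 lower, and leaving out 1 animal 1 to 2 higher and 1 to 3 lower; Mfap4 lost its call without dnPI3K-Mst1 1509 or 1650 (adjusted p = 0.0695 and 0.099). Except where given further up, the share of all genes called under a setting was not set beside its count of members. A gain or loss of calls under such a setting can therefore not be read as particular to the members. The causes were not tested.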

Other observations

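Markers of valve interstitial and cartilage-like cells, none of them a member, had 4 of 7 called above Ntg in dnPI3K-Mst1 and 4 of 7 in Mst1. Of all tested genes, 16.4% and 12.6% were called higher in these comparisons. Comp, a cartilage matrix protein that is also on the activated fibroblast list, was 1.09 ± 0.14 above Ntg in dnPI3K-Mst1 and 0.55 ± 0.14 in Mst1. Sox9, a transcription factor of cartilage and valves, was 0.80 ± 0.10 and 0.57 ± 0.10 above Ntg. The sum of these markers was 10.77 to 11.16 in dnPI3K-Mst1, 10.83 to 11.29 in Mst1 and 9.95 to 10.20 in dnPI3K, against 10.10 to 10.34 in Ntg animals. Thbs4, a thrombospondin on the activated fibroblast list, was 3.57 ± 0.12 above Ntg in dnPI3K-Mst1 (11.9-fold) and 3.95 ± 0.12 in Mst1 (15.4-fold). Prg4, lubricin, was 1.76 ± 0.15 and 1.90 ± 0.15 above Ntg, and the secreted TGF-beta family ligand Inhba 1.01 ± 0.16 and 1.60 ± 0.16.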
